A study of Mus musculus with 10 samples.

Results

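The contractile apparatus of muscle is built from a small set of protein families, and 53 of the 19937 genes measured on these arrays belong to them. The members are every gene whose symbol names a troponin subunit (Tnnc, Tnni, Tnnt), a numbered myosin heavy or light chain (Myh, Myl), a tropomyosin (Tpm), an alpha-actinin (Actn), a myosin-binding protein C (Mybpc), a myomesin (Myom), a myozenin (Myoz), a leiomodin (Lmod), skeletal or cardiac alpha-actin (Acta1, Actc1), titin (Ttn) or nebulin (Neb). Where several probe sets were annotated to a gene alone, the brightest on average over the 10 arrays was taken. By what is known of where they are expressed, 39 members were classed as striated muscle genes, 3 as smooth muscle genes (Myh11, Myl9 and Lmod1) and 10 as broadly expressed, since they also build the cytoskeleton of cells outside muscle, and Myl10 was not classed.

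Expression was measured on Affymetrix Gene 1.0 ST arrays in 2 groups of samples. The first group comprised Sox10-H2BVenus+ sacral neural crest progenitors (NCPs), which were sorted by flow cytometry from pelvic ganglia at a stage labelled embryonic day 13 and put on 3 arrays. The second was total embryo RNA on 7 arrays, for which the labels give neither stage, strain nor genotype. The NCP donors carried the transgene Tg(Sox10-HIST2H2BE/Venus)ASout, in which Sox10 regulatory sequence drives a nuclear Venus reporter, and several fetuses were combined into each sample. The reporter also marks glia and persists briefly in young neurons, so the sorted cells were not progenitors alone. For tissue, the labels name the dissected lower urogenital tract around the ganglia, where the methods name the ganglia. The NCP arrays carry 3 RNA codes in their titles, whereas the total embryo arrays carry 2, on 4 arrays (titles that begin with 836) and 3 arrays (titles that begin with 2090). Arrays with the same code were taken to carry the same RNA, which the labels do not state. A title among the 836 arrays writes the code slightly differently and was counted with the others. P-values measure the spread between arrays, and on this reading the spread for total embryo is one of repeat arrays of 2 RNAs. All NCP arrays bear the same date code, which only total embryo replicate 1 shares, so group and date can be compared only through that array.

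In striated muscle, thick filaments of myosin slide along thin filaments of actin within a repeating unit, the sarcomere. Tropomyosin lies along the thin filament and blocks the myosin sites until calcium binds troponin C, which shifts troponin I and troponin T and moves tropomyosin aside. Alpha-actinin anchors thin filaments in the Z-disc, myomesin cross-links thick filaments in the M-band, and titin spans from one to the other. Smooth muscle and cells outside muscle lack troponin and sarcomeres but use other myosins, tropomyosins and actinins for contraction, adhesion and shape. Trunk neural crest gives rise to neurons, glia and pigment cells and not to striated muscle, whereas a total embryo contains heart, skeletal muscle and smooth muscle. The cells sorted here were sacral crest. In the study's cultures, sorted sacral progenitors also formed colonies that contained myofibroblasts, marked by smooth muscle actin.

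The values are log2 intensities normalized by the authors with robust Multi-Array Average (RMA), in which a difference of 1 is a doubling of the signal, so 1 gene is compared between groups but levels of different genes are not ranked. The NCP arrays covered a narrower range, with a standard deviation (SD) over 28192 probe sets of 0.97 to 1.13 on NCP arrays and 1.78 to 1.91 on total embryo arrays. A floor was taken from 1204 probe sets of vomeronasal and olfactory receptor genes, which are hardly used outside the nose. Their 95th percentile lay at 6.64 to 6.88 on NCP arrays and 5.31 to 5.49 on total embryo arrays, and 16.9 to 27.3% of all probe sets exceeded it on NCP arrays, against 64.2 to 66.8% on total embryo arrays. Sox10 itself was higher in NCPs (7.95, 7.14 and 7.60 on NCP arrays 1, 2 and 3, against 6.38 to 6.65 in total embryo, log2 fold change 1.002, SE 0.18, limma adjusted p = 2.8e-04). Of 9 neural crest genes listed as a check, 7 were measured on a probe set of their own. Of these, 2 were higher (Sox10 and Foxd3), 2 were lower (Ednrb and Erbb3) and 3 did not pass the test. Of all probe sets, 39.6% were higher and 27.5% lower, and Foxd3 was under the floor on NCP arrays 1 and 2. These counts alone therefore do not bear out the labelled cell type.

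Regulatory sequence at the start of some members carries motifs that are known from muscle genes. The 250 bases before the transcription start were read from RefSeq (GRCm38.p6) for the 44 members that have an entry there. They were searched on both strands for the CArG box, to which serum response factor binds, for the E-box CANNTG, to which Myod1 and other bHLH factors bind, for CAGCTG, which is one kind of E-box, and for TATAAA. The sequences of 3 thin filament genes with some of the largest decreases (Actc1, Acta1 and Tnnc2) are shown beside that of Tpm4, the tropomyosin with the smallest change, in lower case with CArG boxes and E-boxes in capitals. Actc1 lies at chr2:114052876-114053125, Acta1 at chr8:123894776-123895025 and Tnnc2 at chr2:164779735-164779984, all on the minus strand, and Tpm4 at chr8:72135038-72135287 on the plus strand.
Actc1: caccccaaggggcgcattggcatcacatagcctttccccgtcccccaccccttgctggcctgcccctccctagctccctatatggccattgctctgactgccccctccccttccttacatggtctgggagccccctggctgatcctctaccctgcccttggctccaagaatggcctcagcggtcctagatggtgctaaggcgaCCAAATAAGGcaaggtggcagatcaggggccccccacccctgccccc
Acta1: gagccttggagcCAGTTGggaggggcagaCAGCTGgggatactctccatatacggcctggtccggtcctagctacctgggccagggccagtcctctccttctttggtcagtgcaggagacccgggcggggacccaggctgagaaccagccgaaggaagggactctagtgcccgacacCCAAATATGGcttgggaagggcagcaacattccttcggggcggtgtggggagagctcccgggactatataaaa
Tnnc2: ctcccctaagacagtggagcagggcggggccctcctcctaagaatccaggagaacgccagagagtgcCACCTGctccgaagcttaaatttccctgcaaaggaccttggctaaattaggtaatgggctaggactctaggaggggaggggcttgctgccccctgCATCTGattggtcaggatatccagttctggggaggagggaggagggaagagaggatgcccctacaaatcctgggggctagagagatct
Tpm4: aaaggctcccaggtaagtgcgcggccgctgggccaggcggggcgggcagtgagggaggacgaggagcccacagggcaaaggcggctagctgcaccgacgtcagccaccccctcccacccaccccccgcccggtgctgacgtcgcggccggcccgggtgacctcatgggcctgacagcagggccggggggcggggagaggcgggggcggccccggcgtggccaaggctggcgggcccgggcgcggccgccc
The Actc1 window holds a CArG box whose first base is at -47 from the start, and no E-box. The Acta1 window holds a CArG box at -73 and E-boxes at -238 and -221. In the Tnnc2 window there are E-boxes at -183 and -88 and no CArG box, and the Tpm4 window holds neither motif.

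A CArG box was present in 8 of 44 members (18.2%), against 439 of 27025 genes with a window (1.62%). It was found in the striated muscle genes Acta1, Actc1, Myh4, Myl3, Myl7 and Myom1 (6 of 31 with a window, 19.4%), in the smooth muscle gene Myl9, and in Myl6, the only one of 10 broadly expressed members. An E-box was present in 37 of 44 members (84.1%) and in 69.3% of all genes, CAGCTG in 29.5% of members and 14.7% of all genes, and TATAAA in 22.7% and 14.3%. These are matches of letters and not measured binding, and the 8 members with a CArG box ranged in log2 fold change from -5.94 (Actc1) to -0.57 (Myl7).

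Most sarcomere and troponin genes were far lower in NCPs than in total embryo. At an adjusted p of 0.05 in limma, 45 of 53 members (84.9%) were lower, where 27.5% of all 28192 probe sets were lower, and 5 members (9.43%) were higher, where 39.6% of all probe sets were. The median log2 fold change was -2.54 over the members and 0.23 over all probe sets. In either direction, 67.1% of all probe sets passed. In 44 of 53 members (83%) the highest NCP array was below the lowest total embryo array, as in 21.5% of all probe sets, and in 4 members (Myh13, Myh15, Myl10 and Myoz3) the lowest NCP array was above the highest total embryo array, as in 31.8%, which makes 53.3% in either direction. The fitted fall exceeded 3 on the log2 scale in 23 members, of which 20 were striated muscle genes. A member under the floor on NCP arrays has only a bound there, and with each NCP level raised to at least the floor the fall exceeded 3 in 17 members (14 striated) and the members' median was -2.06. Such bounds, here and below, hold on the deposited scale only, where the NCP arrays covered the narrower range. With another scaling a fall can be smaller than its bound. As these were bulk samples, fewer cells of a type and less RNA per cell cannot be told apart.

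**Figure D1:**
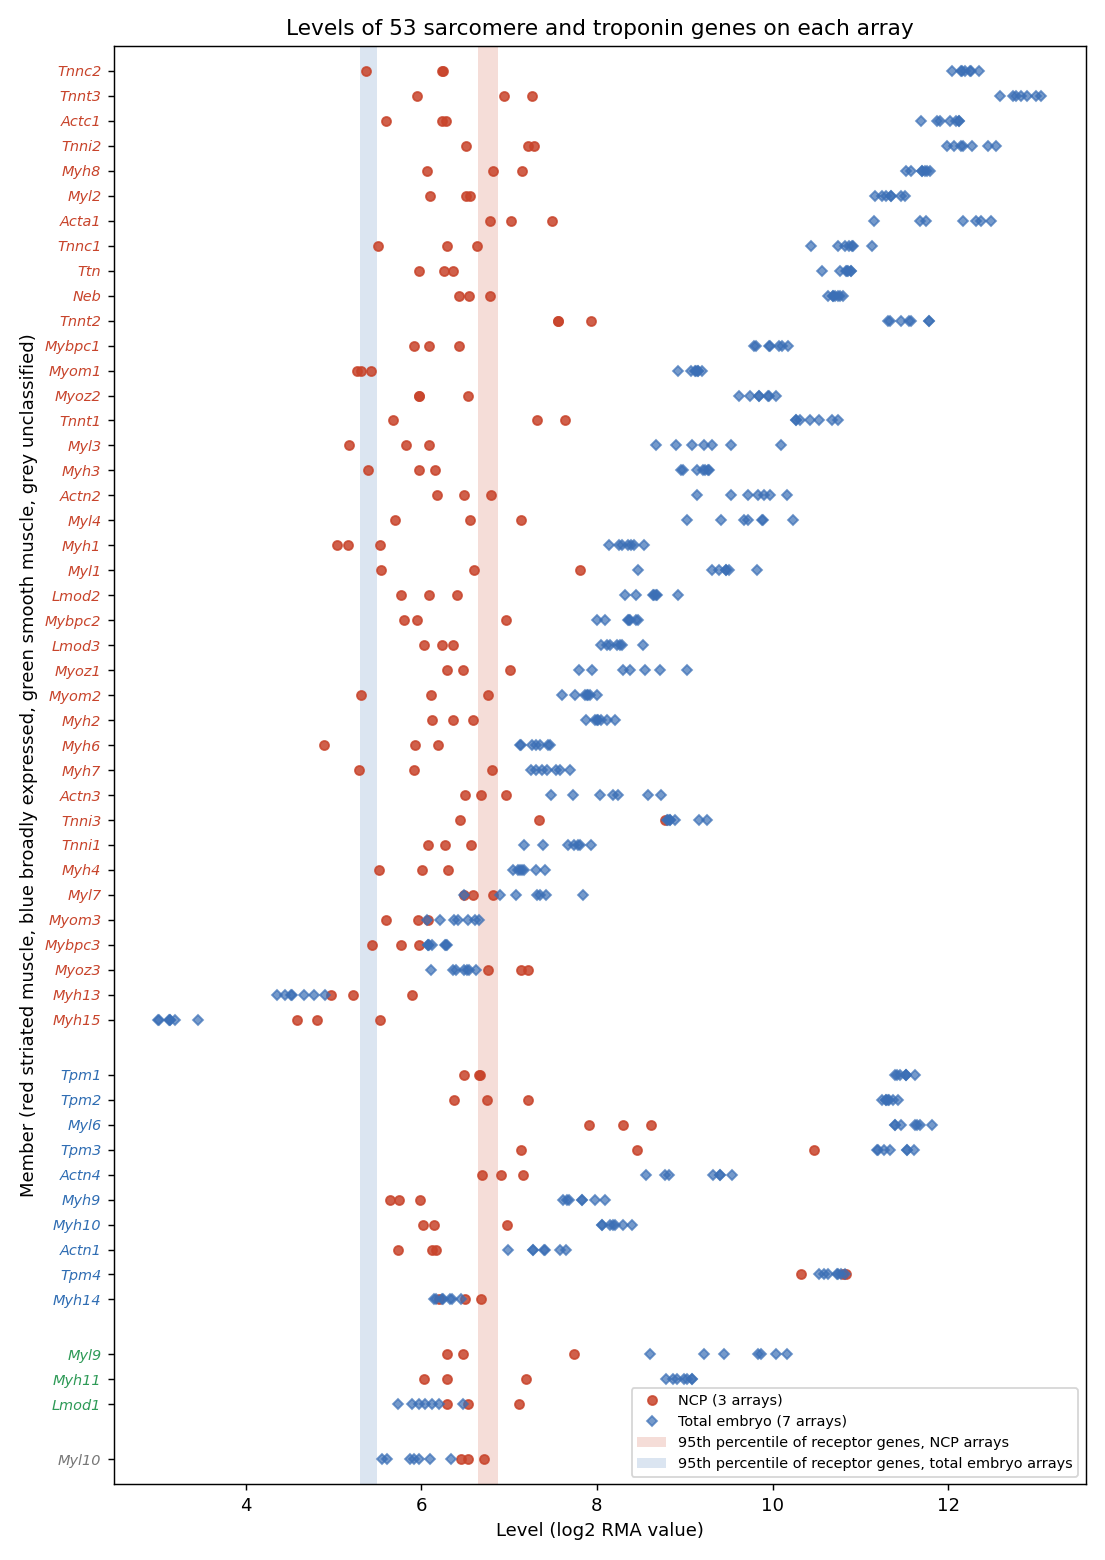
Level of each member on each array (log2 RMA value on the horizontal axis), with NCP arrays as circles, total embryo arrays as diamonds, and shaded bands for the range of the receptor genes' 95th percentile on the arrays of each group. In 44 of 53 members the NCP arrays lie wholly left of the total embryo arrays, and on NCP arrays most members lie in or left of the NCP band.

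The sarcomeric actins were among the most reduced members. Actc1, cardiac alpha-actin and the main thin filament actin of the embryonic heart, measured 5.59, 6.28 and 6.23 on NCP arrays 1, 2 and 3, and 11.70, 12.02 and 12.13 as the lowest, median and highest total embryo array. The groups were far apart, and the log2 fold change was -5.94 (SE 0.18, 95% confidence interval -6.34 to -5.54, limma adjusted p = 7.28e-10). On all 3 NCP arrays Actc1 lay below the receptor genes' 95th percentile (at percentiles 57.8 to 85.5), and against that percentile the fall was at least 5.22 on the deposited scale. Acta1, skeletal alpha-actin, measured 7.03, 7.48 and 6.78 in NCPs, against 11.16, 12.17 and 12.49 in total embryo. In contrast to Actc1, it stayed just above the floor on each NCP array (percentiles 96.6 to 98.8), with a log2 fold change of -4.89 (SE 0.28).

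Leiomodins nucleate actin filaments, and the 3 genes did not move alike. The striated muscle leiomodins Lmod2 and Lmod3 were lower, with log2 fold changes of -2.54 and -2.02. Lmod1, the leiomodin of smooth muscle, was higher, with 6.29, 6.53 and 7.11 on NCP arrays and 5.73, 6.04 and 6.47 in total embryo (log2 fold change 0.58, SE 0.21, limma adjusted p = 0.0248). These ranges overlapped, only 1 NCP array exceeded the floor, and without NCP replicate 3 the value was 0.35 (adjusted p = 0.135). With the RNA code of each array as a random block, the call was lost too (adjusted p = 0.16).

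Every one of the 8 troponin genes was lower in NCPs, with no overlap between groups and a median log2 fold change of -4.28. Tnnc2, the calcium-binding subunit of fast skeletal muscle, had the most negative fitted value of all members. It measured 5.36, 6.25 and 6.23 in NCPs, against 12.05, 12.19 and 12.35 in total embryo (log2 fold change -6.25, SE 0.20, 95% interval -6.68 to -5.82, limma adjusted p = 7.28e-10). Its NCP levels lay at percentiles 44.6 to 85.5 of the receptor genes, and the fall against the floor was at least 5.44. The other fast subunits were Tnnt3 at -6.12 and Tnni2 at -5.24, and Tnnt3, which exceeded the floor on 2 NCP arrays, fell by at least 5.81, so the order of Tnnc2 and Tnnt3 is not settled. The slow and cardiac subunits spanned a wider range, with Tnnc1 at -4.69, Tnnt1 at -3.58, and Tnnt2, the troponin T of the heart, at -3.86.

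Tnni1, the inhibitory subunit of slow muscle, changed least among the troponins. It measured 6.08, 6.27 and 6.56 in NCPs and 7.17, 7.74 and 7.94 in total embryo (log2 fold change -1.34, SE 0.20, limma adjusted p = 5.97e-05), and all its NCP levels were under the floor, which makes the fall at least 0.88. Tnni3, the inhibitory subunit of adult heart, measured 8.77, 6.44 and 7.34 in NCPs and 8.80, 8.83 and 9.25 in total embryo. NCP array 1 thus reached almost to the lowest total embryo array while array 2 lay far below it, and the log2 fold change of -1.42 (SE 0.36, adjusted p = 0.00366) was -0.88 without NCP replicate 2. The call for Tnni3 was lost with arrays averaged per RNA code (adjusted p = 0.123), against 2090 arrays only (0.0555) and after a further quantile normalization (-0.45, adjusted p = 0.482). Tnnt2 was the troponin that stayed above the floor on every NCP array, at 7.56, 7.93 and 7.55 (percentiles 99.2 to 99.8), against 11.31 to 11.78 in total embryo.

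Tropomyosins exist in muscle and non-muscle forms that are spliced from the same genes, and the 4 genes differed widely among themselves, from -4.89 to -0.03. Tpm1, which encodes the main striated tropomyosin and several cytoskeletal forms, measured 6.67, 6.48 and 6.65 in NCPs and 11.40, 11.52 and 11.62 in total embryo. With this small spread, its log2 fold change of -4.89 (SE 0.14, 95% interval -5.19 to -4.59) had the smallest adjusted p of all members (3.1e-10). Tpm2, expressed in skeletal and smooth muscle and in fibroblasts, behaved likewise, with 6.75, 6.37 and 7.21 in NCPs and 11.25 to 11.43 in total embryo (log2 fold change -4.55).

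Tpm3, which encodes slow muscle and cytoskeletal tropomyosins, differed most between NCP arrays of all members on the probe set chosen. It read 8.45, 7.14 and 10.47, against 11.19, 11.34 and 11.61 in total embryo. All NCP arrays were lower, with array 3 close to total embryo, and the log2 fold change was -2.69 (SE 0.49, limma adjusted p = 3.27e-04). The scatter depended on the probe set, since another of Tpm3 read 6.41, 6.13 and 6.74 on NCP arrays and a further probe set 5.95, 4.22 and 6.84. Tpm4, a cytoskeletal tropomyosin, stood apart, with 10.83, 10.33 and 10.80 in NCPs and 10.53, 10.73 and 10.82 in total embryo. The groups overlapped, and the difference of -0.03 had a 95% interval of -0.38 to 0.32 (adjusted p = 0.863). On each NCP array Tpm4 exceeded all receptor genes.

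**Figure D2:**
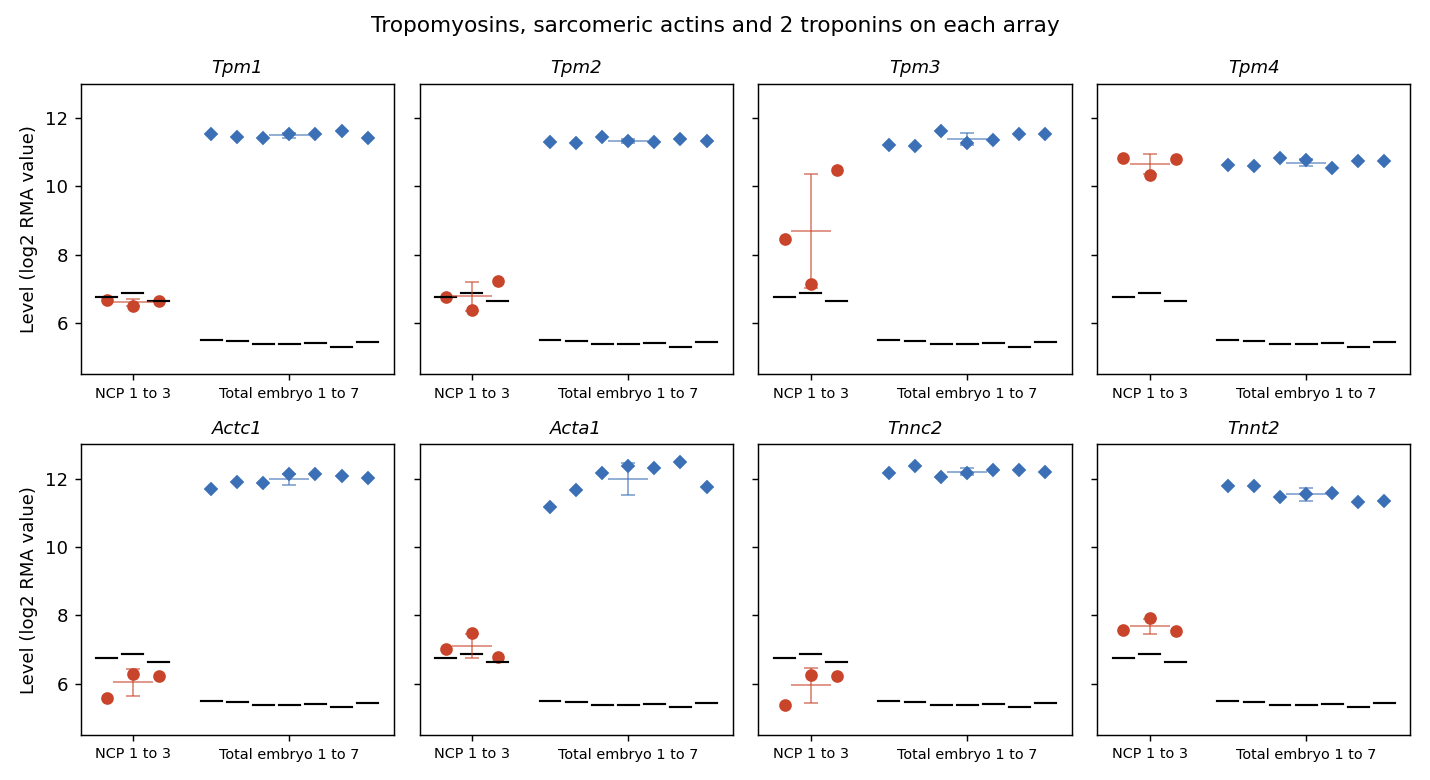
Levels of 8 members on each array (log2 RMA value), with NCP arrays 1 to 3 as circles on the left and total embryo arrays 1 to 7 as diamonds on the right of each panel; wide bars with caps give each group's mean and SD, and short black lines the receptor genes' 95th percentile on that array. Tpm4 lies at the same height in both groups, and the NCP levels of Actc1 and Tnnc2 lie under the black lines. Tpm3 scatters from 7.14 to 10.47 over the NCP arrays on the probe set chosen, which other probe sets of Tpm3 did not share.

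Among the 13 myosin heavy chains, the motor proteins of thick filaments, 10 were lower, 2 were higher and 1 did not pass the test (median -1.67). Myh8, the perinatal chain of developing skeletal muscle, fell furthest, with 7.14, 6.07 and 6.82 in NCPs and 11.52, 11.70 and 11.80 in total embryo (log2 fold change -5.01, SE 0.21, limma adjusted p = 4.09e-09). Myh3, the embryonic chain, and Myh1, a fast chain, had fitted values of -3.31 and -3.10, each under the floor on all NCP arrays, with falls of at least 2.39 and 1.58. The fast chains Myh2 and Myh4 and the cardiac chains Myh6 and Myh7 ranged from -1.67 to -1.24 as fitted and were all under the floor on each NCP array, with bounds of 1.27 (Myh2), 0.42 (Myh4), 0.54 (Myh6) and 0.69 (Myh7). Myh11, the smooth muscle chain, was at -2.46, with 7.20, 6.29 and 6.03 in NCPs and 8.79 to 9.08 in total embryo. Skeletal Myh genes lie in a cluster of similar sequence and were measured by short probes, so the split between them is uncertain, as is that between the similar genes for the actins.

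Of the 3 non-muscle heavy chains, which drive cell division and migration, Myh9 and Myh10 were lower, at -2.03 and -1.81, and Myh9, under the floor on each NCP array, fell by at least 1.05. Myh14 did not pass the test. Its NCP levels of 6.20, 6.50 and 6.68 overlapped with 6.15, 6.25 and 6.45 in total embryo, and the difference of 0.18 had a 95% interval of -0.15 to 0.52 (adjusted p = 0.309).

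The 2 heavy chains that were higher in NCPs were the only members below the floor on every array of both groups. Myh15 measured 4.81, 5.52 and 4.58 in NCPs and 3.002, 3.13 and 3.46 in total embryo (log2 fold change 1.82, SE 0.20, limma adjusted p = 5.9e-06), without overlap. Its NCP levels stood at percentiles 12.2 to 43.8 of the receptor genes. Myh13, the chain of extraocular muscle, measured 5.89, 4.97 and 5.22 in NCPs and 4.35, 4.52 and 4.91 in total embryo (log2 fold change 0.76, SE 0.21, adjusted p = 0.00573). For both, the difference lay between levels that the receptor genes also had on these arrays. Without NCP replicate 1 the value for Myh13 was 0.50, and with RNA code as a random block its adjusted p was 0.063.

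Myosin light chains stabilize and tune the myosin neck, and 6 of 8 were lower (median -2.99). Myl2, the regulatory chain of ventricle and slow muscle, had the largest decrease, with 6.10, 6.51 and 6.55 in NCPs and 11.17, 11.35 and 11.51 in total embryo (log2 fold change -4.95, SE 0.16, limma adjusted p = 7.28e-10). It lay under the floor on each NCP array. Myl3, Myl4 and Myl1, essential chains of ventricle, atrium and fast muscle, were at -3.56, -3.23 and -2.70. Of these, Myl1 was uneven between NCP arrays, at 7.81, 6.60 and 5.54, against 8.47 to 9.82 in total embryo. For Myl6, the essential chain of smooth muscle and non-muscle cells, the probe set chosen was at -3.30. It read 8.30, 7.91 and 8.62 on NCP arrays (percentiles 99.8 to 100), against 11.39 to 11.81 in total embryo. The 5 probe sets of Myl6 ran from -5.40 to -1.07, and the one at -5.40 read 4.83, 3.84 and 6.74 on NCP arrays. How much Myl6 signal NCPs kept is therefore not settled. Myl9, the regulatory chain of smooth muscle, was at -2.76.

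Myl7, the atrial regulatory chain, was the light chain that did not pass the test. It measured 6.81, 6.48 and 6.59 in NCPs and 6.49, 7.32 and 7.84 in total embryo, where the arrays spread over more than those of NCPs. The groups overlapped, and the difference of -0.57 had a 95% interval of -1.11 to -0.03 (adjusted p = 0.0574). Without total embryo replicate 1 it was -0.69 and passed (adjusted p = 0.0135). Myl10, a regulatory light chain, was higher, with 6.45, 6.53 and 6.71 in NCPs and 5.56, 5.91 and 6.33 in total embryo (log2 fold change 0.66, SE 0.19, adjusted p = 0.00753), and exceeded the floor on 1 NCP array. The call was lost with RNA code as a random block (adjusted p = 0.128), with arrays averaged per RNA code (0.123) and against 2090 arrays only (0.129).

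The 15 genes of the Z-disc, M-band, thick filament accessory and giant proteins comprised 14 lower members and 1 higher, with a median of -2.06. Ttn, titin, measured 6.25, 6.36 and 5.97 in NCPs and 10.57, 10.85 and 10.89 in total embryo (log2 fold change -4.61, SE 0.15, limma adjusted p = 9.16e-10), and lay under the floor on all NCP arrays, with a fall of at least 4.05. Nebulin, which runs along the skeletal thin filament, and Mybpc1, the slow skeletal myosin-binding protein C, were at -4.14 and -3.84. Fitted values were -3.77 for Myom1, -3.70 for Myoz2, a Z-disc protein of heart and slow muscle, and -3.27 for Actn2, the alpha-actinin of striated muscle. Against the floor they fell by at least 2.35 (Myom1), 3.10 (Myoz2) and 2.98 (Actn2), so their order is not settled. The decreases of Mybpc2, Myoz1, Myom2 and Actn3 ran from -2.06 to -1.42, and Myom3 was at -0.53, which lost the call without NCP replicate 2 (-0.39, adjusted p = 0.0818), with RNA code as a random block (0.174), with arrays averaged per code (0.226), with label series as a block (0.108) and against 2090 arrays only (0.23).

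Mybpc3, the myosin-binding protein C of the heart, changed least, with 5.44, 5.97 and 5.77 in NCPs and 6.07, 6.12 and 6.29 in total embryo. Its groups did not overlap, but the decrease was only -0.44 (SE 0.16, limma adjusted p = 0.0248), and without NCP replicate 1 it was -0.30 (adjusted p = 0.0989). The call was also lost with RNA code as a random block (adjusted p = 0.164) and averaged per code (0.296). For Mybpc3 and Myom3 the NCP floor lay above the mean in total embryo, so neither has a bound on its fall. Myoz3, a myozenin of fast skeletal muscle, was the higher member. It measured 7.21, 7.13 and 6.76 in NCPs and 6.11, 6.49 and 6.62 in total embryo, with no overlap (log2 fold change 0.60, SE 0.17, adjusted p = 0.0066), and exceeded the floor on each NCP array. The call was lost with RNA code as a random block (adjusted p = 0.0934), with arrays averaged per code (0.162) and against 2090 arrays only (0.0951). The broadly expressed actinins Actn4 and Actn1, which cross-link actin at adhesions and stress fibres, were at -2.20 and -1.36, where Actn1, under the floor on each NCP array, fell by at least 0.61.

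On the deposited scale most muscle-restricted and most broadly expressed members were lower, where 27.5% of all probe sets were. Of the 39 striated muscle members, 35 were lower, 3 were higher (Myh13, Myh15 and Myoz3) and Myl7 did not pass, with a median of -3.10. Of the 10 broadly expressed members, 8 were lower and 2 (Myh14 and Tpm4) did not pass, with a median of -2.11, and of the 3 smooth muscle members 2 were lower and 1 was higher. Bright probe sets fell in general, as set out below. The brightest 1 of 10 groups by total embryo level, which held 6 of the broadly expressed members, had a median of -2.16 over all its probe sets. The broadly expressed median as fitted thus shows nothing particular to that class. The medians of the striated and broadly expressed classes differed by -0.98, and this difference was -0.81, -0.94 and -1.09 on NCP arrays 1, 2 and 3. With lower members at their bound against the floor, the medians were -2.24 for striated and -1.76 for broadly expressed members and differed by -0.48. The classification bears on the fitted difference, since with Tpm1 and Tpm2 counted as striated muscle genes it was -1.31, and with the smooth muscle genes joined to the striated ones -0.62.

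Against the receptor genes' floor the classes differed in how many members were left on NCP arrays. Of 53 members, 51 exceeded the 95th percentile on each total embryo array, the exceptions being Myh13 and Myh15. On NCP arrays 1, 2 and 3, 17, 8 and 22 members exceeded it. No NCP array showed a level above the floor for 25 members, which were 23 of the 39 striated and 2 of the 10 broadly expressed ones (Myh9 and Actn1). All 3 NCP arrays did so for 7 members, namely Acta1, Tnnt2 and Myoz3 among striated and Actn4, Myl6, Tpm3 and Tpm4 among broadly expressed genes. For Tpm3 and Myl6 this rests on the probe set chosen. Another Tpm3 probe set read 6.41, 6.13 and 6.74 on NCP arrays 1, 2 and 3, under the floor on arrays 1 and 2. Another of Myl6 read 4.83, 3.84 and 6.74, also under it on arrays 1 and 2. A further Myl6 probe set, at 7.51, 8.20 and 9.47, exceeded it on each. The order of the counts per NCP array followed that of all probe sets, of which 22.9, 16.9 and 27.3% exceeded the floor on NCP arrays 1, 2 and 3. How many of all probe sets exceeded it on none or on all of the NCP arrays was not counted. Those 2 counts of members therefore show nothing particular to them.

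The change of a probe set went with its level in total embryo. When all probe sets were split into 10 equal groups by that level, the dimmest group had a median log2 fold change of 2.08 and the brightest one of -2.16. The brightest group held 30 of the 53 members, and within it the 22 striated members had a median of -3.85 and the 6 broadly expressed members one of -2.995 (-3.54 and -2.995 with members at their bound). In the next group, where the median of all probe sets was -1.38, the 8 striated members had a median of -1.79 and the 2 broadly expressed members (Myh9 and Myh10) one of -1.92 (-1.37 and -1.19 at their bound).

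**Figure D3:**
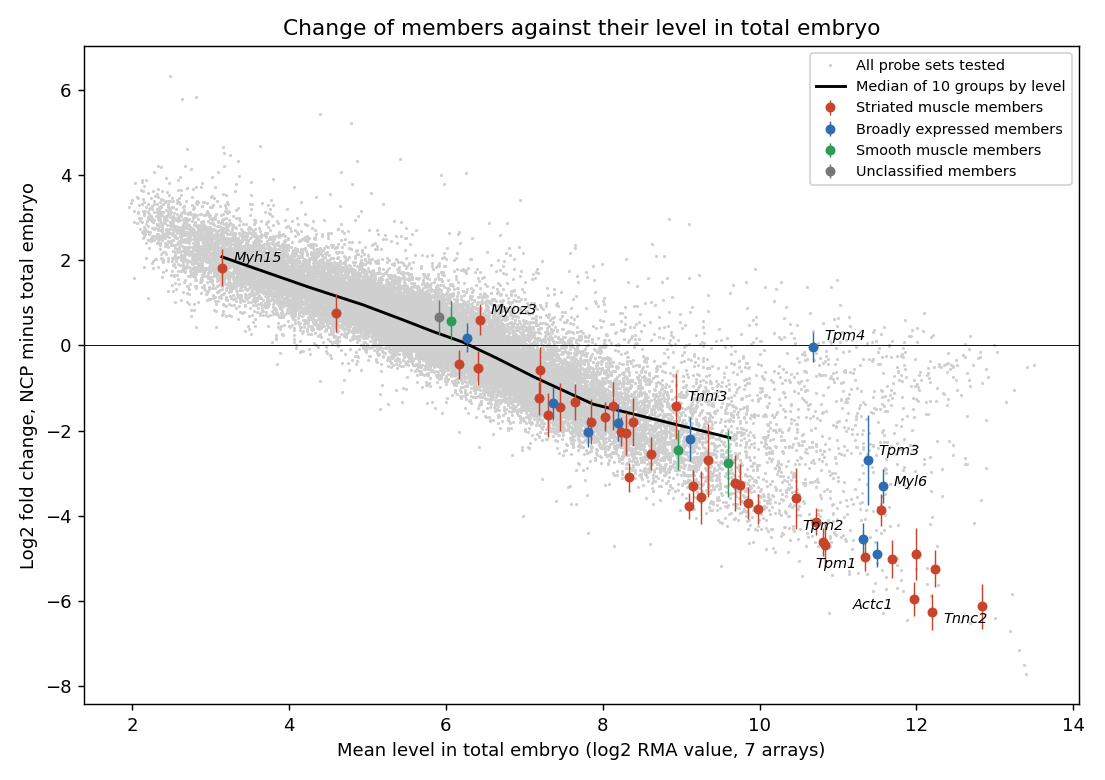
Log2 fold change (NCP minus total embryo) of each probe set against its mean level on the 7 total embryo arrays; members are coloured by class with 95% confidence intervals, all probe sets tested are grey, and the black line connects the medians of the 10 level groups. Most members above a level of 8 lie below the line, whereas Tpm4 lies near 0 at a mean level of 10.7.

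A fit with this trend taken out was therefore set beside the first one. For each array, a smooth curve of its deviation from the total embryo mean, as a function of that mean, was subtracted (level adjustment), so that the trend is removed by construction. Then 23 of 53 members (43.4%) were lower, where 8.29% of all probe sets were, 2 were higher, where 10.3% were, and 28 did not pass the test. In either direction, 18.6% of all probe sets passed. The members' median was -0.55, that of all probe sets -0.013, and the adjusted change was negative in 45 of 53 members, against 51.1% of all probe sets. Among striated members 20 of 39 stayed lower (median -0.92), among broadly expressed ones 3 of 10 (Tpm1, Tpm2 and Myh9, median -0.31), and no smooth muscle member passed.

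The 10 most negative adjusted values were those of 4 troponins, both sarcomeric actins, 2 myosin chains, Tpm1 and titin. Tnnc2 was at -3.50 (limma adjusted p = 6.34e-04), Tnnt3 at -3.28, Actc1 at -3.22 (adjusted p = 7.04e-04), Tnni2 at -2.48, Myl2 at -2.35, Myh8 at -2.34, Tpm1 at -2.26, Acta1 and Tnnc1 at -2.18, and Ttn at -2.10. Tnnt2, at -1.22, no longer passed (adjusted p = 0.0742), and neither did Myl6 (-0.65), Tpm3 (-0.08) and Actn4 (-0.06). By contrast, Tpm4 was higher by 2.45 (adjusted p = 4.75e-05) and Myoz3 by 0.71 (adjusted p = 0.01). Lmod1, Myl10, Myh13 and Myh15 were not past the threshold, and the values of Myh13 and Myh15 turned to -0.41 and -0.32.

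Tpm4 therefore had a direction that depended on the scaling. It did not differ as deposited (-0.03), was higher by 1.05 after a further quantile normalization of the deposited values (limma adjusted p = 6.86e-04) and by 1.94 after cyclic loess (adjusted p = 2.08e-04), and without NCP replicate 2 was at 0.13. Cyclic loess left 31 members lower, where 16.0% of all probe sets were, and 2 higher (Tpm4 and Myoz3), where 16.9% were. With the only total embryo array that shares the NCP date code, 23 members were lower and none higher, while 2.45% of all probe sets were lower and 1.29% higher. This fit takes the lone array to vary as the NCP arrays did.

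**Figure D4:**
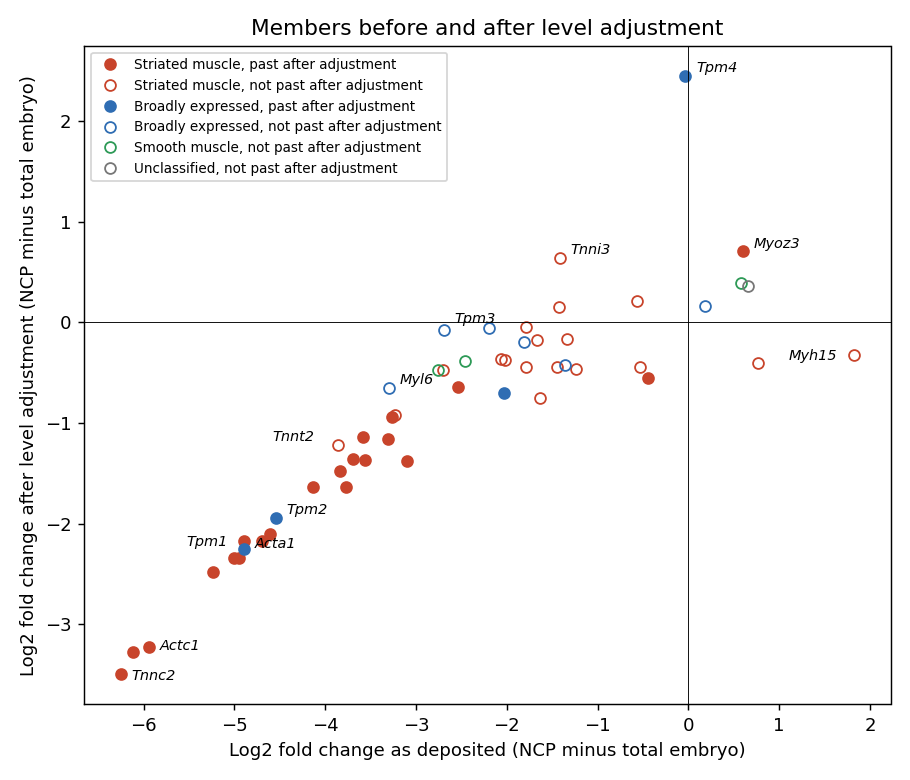
Log2 fold change of each member as deposited (horizontal axis) and after level adjustment (vertical axis), both NCP minus total embryo, coloured by class, with filled points past an adjusted p of 0.05 after adjustment. Tnnc2, Tnnt3 and Actc1 are lowest on both axes, and Tpm4 is near 0 as deposited and at 2.45 after adjustment.

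In most members the NCP arrays differed among themselves more than the total embryo arrays did, which were taken as repeats of 2 RNAs where the NCP arrays carry 3 RNA codes. The range over the 3 NCP arrays was wider than that over the 7 total embryo arrays in 35 of 53 members, with a median SD of 0.36 in NCPs and 0.16 in total embryo. The widest NCP ranges were those of Tpm3, Tnni3, Myl1 and Tnnt1. For Tnnt1, the troponin T of slow muscle, the NCP arrays read 7.64, 5.68 and 7.31. No single array was high throughout, since the highest level was on NCP array 1 for 22 members, array 2 for 13 and array 3 for 18. These counts and that of the wider ranges were not made over all probe sets, so they show nothing particular to the members. Several members had probe sets that did not move equally. For Myl6, 5 probe sets ran from -5.40 to -1.07 and for Tpm3 4 ran from -2.77 to -1.02, while the other probe set of Myh9 did not pass the test (0.38, adjusted p = 0.207). Signal from near-identical gene copies cannot be separated with these probes, so the levels and the sizes of change for Myl6 and Tpm3 are uncertain.

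The arrays of total embryo were also compared among themselves. Between the arrays of its RNA codes (3 arrays titled 2090 against 4 titled 836), limma called 0 of 53 members and 0 of 28192 probe sets, while 9 members and 3446 probe sets (12.2%) had an unadjusted p under 0.05. As a description, 42 of 53 members had a lower mean on the 2090 arrays, against 42.9% of all probe sets. In 12 members (22.6%) all 2090 arrays lay below all 836 arrays, where 5.49% of all probe sets did, and no member had all 2090 arrays above, where 6.14% did (11.6% in either direction). The lower ones were Actn2, Actn3, Actn4, Myoz1, Acta1, Myh3, Myh7, Myl2, Myl3, Myl7, Myl9 and Tnni2. The difference reached -0.89 for Myl9 and -0.81 for Acta1, which measured 11.16 to 11.75 on 2090 arrays and 12.17 to 12.49 on 836 arrays. Without total embryo replicate 7, Myl9 passed the test (-1.07, SE 0.19, adjusted p = 0.0498). Each code was taken as 1 RNA, so this p speaks of arrays and not of embryos. The NCP arrays are of the 2090 series, and against its 3 arrays alone 42 members were lower, where 19.5% of all probe sets were, and 1 (Myh15) was higher, where 26.8% were.

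Other genes of muscle and of the actin cytoskeleton, from lists made for comparison, had fitted medians less negative than that of the members. After level adjustment the medians were closer, at -0.53 for smooth muscle, -0.42 for both striated muscles and -0.41 for skeletal muscle genes. They were -0.29 for heart and -0.26 for actin cytoskeleton genes, against -0.55 for the members. As deposited, 27.5% of all probe sets were lower and 39.6% higher. Of 16 other skeletal muscle genes, 11 were lower and 3 (Myf5, Pax7 and Chrng) were higher (median -0.95), led by Casq1 (-4.39) and Atp2a1 (-3.74), which store and pump calcium in the sarcoplasmic reticulum. Myf5 (1.44), a determination factor of myoblasts, had 7.04, 7.15 and 6.57 in NCPs and 5.02 to 5.77 in total embryo. All NCP arrays were above, as in 31.8% of all probe sets, and NCP array 3 was under the floor. Of 13 other heart genes, 6 were lower and 4 (Nppb, Nkx2-5, Tbx5 and Tbx20) higher (median -0.39), with the largest decreases in Csrp3 (-3.49), a Z-disc protein, and Casq2 (-2.90), the cardiac calsequestrin. Nppb, Tbx5 and Tbx20 lay under the floor on each NCP array, and none of these was higher after level adjustment. Of 8 other genes shared by both striated muscles, 7 were lower (median -1.62), led by the transcription factor gene Mef2c (-3.53) and Nrap (-2.68).

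Outside striated muscle, 5 of 6 other smooth muscle genes were lower (median -1.76), led by the smooth muscle actins Acta2 (-3.45) and Actg2 (-3.29). Of 9 other genes of the non-muscle actin cytoskeleton, 8 were lower and none was higher (median -1.77). The largest decreases were those of Actb (-3.40), beta-actin, and Myl12b (-2.95), a non-muscle regulatory light chain. Actb nevertheless stayed well above the floor on NCP arrays, at 8.92, 7.54 and 9.87, against 11.77 to 12.48 in total embryo. After level adjustment, 5 of the 16 skeletal, 2 of the 13 heart, 3 of the 8 shared striated, 2 of the 6 smooth muscle and 1 of the 9 cytoskeletal genes were lower. Of all probe sets, 8.29% were lower after it and 10.3% higher. The genes that were then higher were Cfl1 (1.53) and Pfn1 (0.97), which encode the actin regulators cofilin and profilin, and the transcription factor genes Myf5 (0.85) and Nkx2-5 (0.67) of skeletal muscle and heart.

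**Figure D5:**
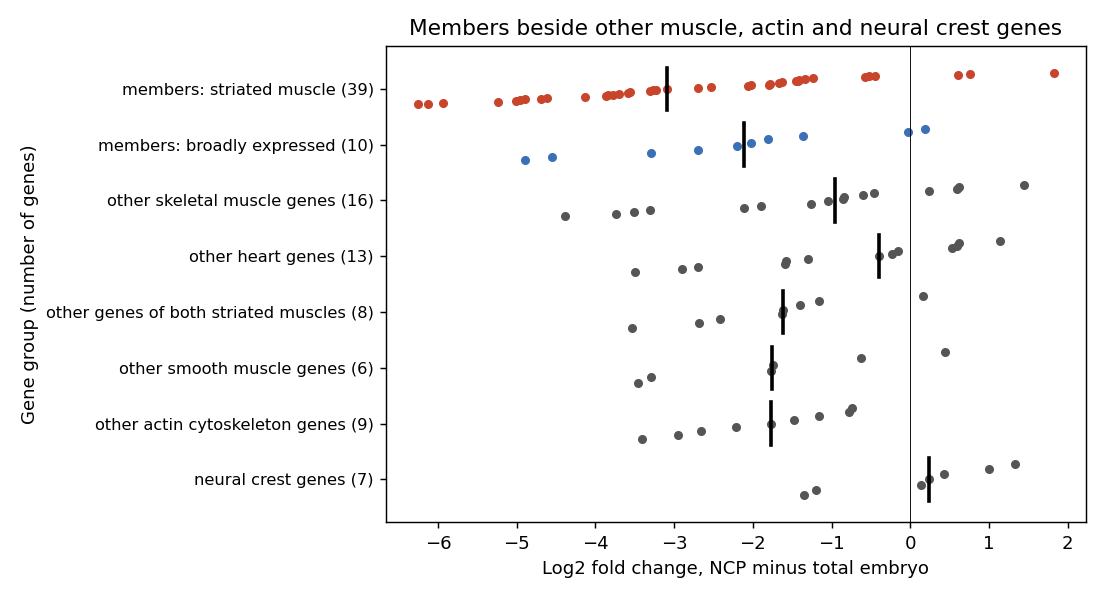
Log2 fold change (NCP minus total embryo) of each gene in 8 groups, with the number of genes in parentheses and the group median as a vertical bar. The striated muscle members have the most negative median as fitted (-3.10), and the 7 neural crest genes run from -1.35 (Ednrb) to 1.33 (Foxd3).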

How the data were processed

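The deposited values are on a log2 scale and were made by the authors with RMA in Affymetrix Expression Console 1.1, per the labels. Which arrays were normalized together is not given in the sources used here. Of 34760 probe sets, 6568 controls were left out and 28192 tested with limma 3.58.1 in R 4.3.3 (NCP against total embryo, no covariates, prior of 4.65 degrees of freedom and SD of 0.315, Benjamini-Hochberg adjustment over all probe sets). Symbols came from the platform annotation, and all 53 members matched RefSeq gene names (GRCm38.p6). One further tropomyosin probe set carries several symbols and was not used. Level adjustment used lowess with a span of 0.3. A fall given as at least a value sets each NCP array at the higher of its own level and the receptor genes' 95th percentile. It is a bound on the deposited scale only. Actc1, for example, with a bound of 5.22, was at -3.94 after cyclic loess and at -3.22 after level adjustment. Figures were drawn with Python 3.11.15.

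In each protein group the member with the largest decrease, the one with the smallest change and those that were higher are given in full, and from each other list up to 2 genes with the largest change. Other genes described with values (among them Acta1, Tnnt2, Tnni3, Tpm2, Tpm3, Myl1, Myl6, Sox10, Myf5, Nkx2-5, Cfl1 and Pfn1) were picked after their values were seen. The members, classes and lists were chosen with earlier results of these data known. Alternatives changed the total embryo arrays used, the handling of RNA codes, the scaling, the spread model, the filter on dim probe sets and the probe set choice, and left out each array in turn. The fits were tested on simulated data.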

Additional observations from a re-analysis of the deposited data

Results flagged for a closer look

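In 3 of 53 members, 1 of the 7 total embryo arrays lay far from the others by Dixon's criterion at 95%. Chance alone flags about 5% of groups. Myl1 on total embryo replicate 7 was lowest at 8.47, with the nearest array at 9.32 and the highest at 9.82. Ttn on total embryo replicate 3 was lowest at 10.57, with the nearest at 10.76 and the highest at 10.89. Myh15 on total embryo replicate 1 was highest at 3.46, with the nearest at 3.19 and the lowest at 3.002.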

How the results depend on the processing

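With 1 array left out at a time, 44 to 46 members were lower (45 with all arrays), 34 to 36 striated and 8 broadly expressed ones, 4 to 5 members were higher, the class medians differed by -1.05 to -0.87, and 0 to 1 member differed between RNA codes. With the same-date total embryo array alone, 23 members were lower (20 striated, 3 broadly expressed) and 0 higher, and the medians differed by -0.73. Level adjustment gave 23 lower (20 and 3), 2 higher and -0.61, and cyclic loess 5 broadly expressed members lower, 2 members higher and -0.49. Higher members numbered 1 against 2090 arrays only, with arrays averaged per RNA code and with RNA code as a random block, 2 with array weights, 3 with dim probe sets removed and 0 with arrays centred on the receptor genes, which moved the median of all probe sets to -1.47 (1339 higher and 21970 lower, against 11158 and 7747). The medians differed by -0.79 against 836 arrays only, by -1.19 with all probe sets of a gene averaged, by -1.31 with Tpm1 and Tpm2 in the striated class and by -0.62 with the smooth muscle members joined to it. They differed by -0.48 with lower members at their bound against the floor, a setting chosen after seeing the data. Quantile normalization again gave 6370 higher and 5648 lower probe sets, cyclic loess 4777 and 4506, and removing dim probe sets 3097 and 7558.

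Signs turned for few members. After level adjustment and cyclic loess these were Actn3 (0.15 and 0.12), Tnni3 (0.65 and 0.61), Myl7 (0.22 and 0.25), Myh13 (-0.41 and -0.47) and Myh15 (-0.32 and -0.27). Centring on the receptor genes turned Lmod1 (-1.11), Myh13 (-0.93), Myh14 (-1.51), Myl10 (-1.04) and Myoz3 (-1.09). Quantile normalization again turned Myh13 (-0.23), and the same-date array Myl7 (0.14). Tpm4, near 0 as deposited, was at 0.0023 against 2090 arrays only and with label series as a block, 0.027 with the same-date array, 0.0063 with array weights, -0.12 to 0.13 with 1 array left out (0.13 without NCP replicate 2), 1.05 after quantile normalization, 1.94 after cyclic loess and 2.45 after level adjustment. The cause of these shifts was not tested. No paired analysis was possible because the replicate numbers only follow the order of the samples and pair none. Precision is limited by the few arrays, and on NCP arrays a level under the receptor genes' floor is a bound, which holds on the deposited scale only.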
